A study of Mus musculus with 12 samples.

Results

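Blood endothelial cells of mouse lymph nodes were compared between day 7 and day 3 after oxazolone, a contact sensitiser painted on the skin. Cells came from the 4 oxazolone libraries of the endothelial (CD31) sort, and 15821 of the 50017 cells kept in the 6 CD31 libraries, or of 95358 in all 12 libraries of the series, were members. A barcode counted as a cell with at least 1000 UMIs (molecular tags that mark 1 captured RNA molecule each), at least 500 genes and at most 10% mitochondrial UMIs. A cell counted as blood endothelial with at least 2 UMIs of Pecam1 plus Cdh5, no UMI of the immune genes Ptprc, Cd79a and Cd3e, and no UMI of Prox1, the lymphatic regulator. Day 3 gave 3674 cells from the library labelled Cre-negative and 5344 from the one labelled Cre-positive, and day 7 gave 3949 and 2854. Another 7894 blood endothelial cells, 4062 and 3832, came from the vehicle libraries and served as the base level.

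Every mouse was on a C57BL/6 background, aged 7 to 10 weeks, carried floxed Atg12, an autophagy gene, and received tamoxifen 5 times. Mice labelled positive also carried CDH5 CreER, a tamoxifen-dependent recombinase under an endothelial promoter, and mice labelled negative lacked it. Oxazolone at 4%, 50 ul per area, went on the shaved abdomen, and vehicle mice received its acetone and olive oil solvent alone. The submitters describe day 3 as the height of inflammation and day 7 as its resolving phase, and the comparison asks which day 3 differences had gone by day 7. Each combination is 1 library, and the number of mice in it is not given in the sources used here. The spread between repeat libraries could therefore not be measured. The p-values below come from fits that remove a constant difference between the labels. Their error term is how far the differences between days, or from vehicle, vary from one label to the other. Each day is also confounded with its libraries, and the effects of day and library cannot be told apart.

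The gated cells held 16262498 to 28501154 UMIs per library at a median of 3681 to 4743.5 UMIs per cell. No 2 of the 12 libraries shared more than 31 cell barcodes. The summed level of 14 pan-endothelial genes ran from 8889 to 10659.8 CPM (counts scaled to a common library total), against 6.64 to 21.7 CPM for 10 B cell genes and 8.73 to 36.3 CPM for 10 T cell genes; Cd79a, Cd3e and Prox1 are at 0 by the gate. The day 3 library labelled Cre-positive stood apart, with 12.8% of its gated cells in clusters led by genes of another cell type against 1.42% to 7.53% elsewhere. In vehicle cells labelled Cre-positive Xist was seen in 0.104%, against 29.96% to 47.1% in the other 5 libraries, so the sex of the mice differed between libraries. Atg12, the targeted gene, stood at 51.7 and 73.1 CPM with vehicle, 46.7 and 59.5 CPM at day 3, and 52.5 and 64.2 CPM at day 7, the library labelled Cre-negative first in each pair, as in all pairs below. Within each treatment the library labelled Cre-positive had the larger value, and a 3' count cannot show whether an inner exon was removed. "Label" below means the genotype written on the library.

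Blood endothelium lines the arteries, capillaries, veins and high endothelial venules of a node, the last being the tall-walled vessels through which lymphocytes enter from blood. When a node swells after skin inflammation its vessels grow by division of endothelial cells. Dividing cells copy DNA in S phase, segregate it in M phase and make sterols and ribosomes in larger amounts. Selectins and chemokines on the same cells control which leukocytes stop and cross.

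At day 7 the blood endothelium held less RNA of cell division genes than at day 3 in both labels, with a median log2 ratio of -2.30 and -1.58 for the genes of mitosis. Genes of cholesterol synthesis, ribosome biogenesis with other Myc targets, protein folding and heat shock were lower too. So were the acute phase genes Saa3 and Lcn2 and the chemokine gene Cxcl10. The IL-6 and STAT3 list that holds Saa3 and Lcn2 was not lower as a whole, at a median log2 ratio of 0.01 and 0.03. Higher at day 7 were Enpp2, which makes the lymphocyte-motility lipid LPA, the HDL receptor gene Scarb1 and the kinase gene Sik1. For the genes of mitosis the day 7 level was below vehicle in one label and above it in the other, at a median log2 ratio of -0.71 and 0.86, and Enpp2 at day 7 was above vehicle in both.

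Across 15195 genes, edgeR's quasi-likelihood test with the label as an additive term and all 6 libraries in the fit called 0 genes at an adjusted p (Benjamini-Hochberg) below 0.05, with a lowest adjusted p of 0.0563, while 3198 genes (21%) had an unadjusted p below 0.05. Of these, 1383 (9.10% of genes tested) were higher in both labels and 1815 (11.9%) were lower in both. Against vehicle, day 3 gave 0 calls as well, with a lowest adjusted p of 0.0506 by edgeR and 2216 genes higher (14.6%) and 1437 lower (9.46%) at an unadjusted p below 0.05; at least 2-fold in both labels were 219 (1.44%) and 40 (0.263%), and DESeq2 called 724 (5.51%) and 207 (1.58%). The same test of day 7 against day 3 on the 4 oxazolone libraries alone called 185 genes higher (1.25%) and 545 lower (3.67%) with both labels in the same direction, and DESeq2 on all 6 libraries called 176 (1.31%) and 480 (3.57%). The fit of 4 libraries leaves 1 residual degree of freedom and that of 6 libraries leaves 2. The number called thus differed with the libraries in the fit and with the tool, and genes below are described as higher or lower with their values. Most named genes were chosen by the size of their day 7 to day 3 ratio in these same data. A gap between day 3 and day 7 in such genes follows in part from that choice and is no separate support. A difference of at least 2-fold in both labels was seen in 18 genes (0.118%) upward and 215 (1.41%) downward. Over all genes the median log2 ratio of day 7 to day 3 was -0.02 and 0.06, which is the level against which the gene groups are read. As these are sums over cells, fewer cells of a kind and less RNA per cell cannot be told apart in them.

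All 26 of the G2 and M phase list were lower at day 7 in both labels (31.3% of all genes were), all 26 with an unadjusted p below 0.05 (11.9%). At least 2-fold lower in both labels were 25 of them (1.41% of all genes), and all 26 were called in the fit of the 4 oxazolone libraries (3.67%). Their median log2 ratio was -2.30 and -1.58, after a day 3 to vehicle ratio of 1.58 and 2.48. Top2a, the enzyme that untangles DNA before it is parted, stood at 38.4 and 16.9 CPM with vehicle, 121 and 146 CPM at day 3, and 21.7 and 38.4 CPM at day 7. Both day 3 libraries were above all 4 others, and the vehicle and day 7 libraries overlapped. The fitted log2 difference was -2.19 (SE 0.43), with an adjusted p of 0.0833 by edgeR over 6 libraries and 0.0218 over 4.

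Cdk1, the kinase that starts mitosis, stood at 21.7 and 11.3 CPM with vehicle, 64.8 and 68.5 CPM at day 3, and 14.0 and 20.7 CPM at day 7. Again the day 3 pair was above the rest with no overlap, and the log2 difference was -1.97 (SE 0.32) at an edgeR adjusted p of 0.0720 (4 libraries: 0.0218). Tpx2, a spindle assembly factor, stood at 9.83 and 6.70 CPM with vehicle, 42.2 and 42.7 CPM at day 3, and 7.2 and 10.6 CPM at day 7. Its log2 difference of -2.28 (SE 0.24) had an edgeR adjusted p of 0.0563 (4 libraries: 0.0218). Birc5, which holds the chromosomal passenger complex, was more spread at day 7, at 18.3 and 7.01 CPM with vehicle, 75 and 80.9 CPM at day 3, and 8.73 and 22.6 CPM at day 7. Without the clusters led by another cell type, which set the day 3 library labelled Cre-positive apart, all 26 genes were still lower at a median of -2.30 and -1.62, and with that library left out the fitted median was -1.95. In all 26 genes the day 7 library labelled Cre-positive was above the one labelled Cre-negative, and in all 26 the vehicle libraries had the opposite order.

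The 24 genes of S phase, which copy DNA, showed the same pattern at a smaller size. All 24 were lower at day 7 in both labels (31.3% of all genes were) and 23 had an unadjusted p below 0.05 (11.9%). The median log2 ratio was -1.32 and -0.91, after 0.99 and 1.32 from vehicle to day 3. Rrm2, the subunit of ribonucleotide reductase that limits DNA building blocks, stood at 6.44 and 2.95 CPM with vehicle, 26.8 and 27.4 CPM at day 3, and 3.05 and 7.01 CPM at day 7. Pclaf, a partner of the PCNA clamp outside the list, stood at 18.6 and 9.12 CPM with vehicle, 85.4 and 89.4 CPM at day 3, and 12.3 and 23.7 CPM at day 7. For both, the day 3 pair lay above all other libraries. Ccne2, the cyclin of S phase entry, and Uhrf1, which copies DNA methylation, differed from day 3 by -1.88 (SE 0.28) and -1.97 (SE 0.30) on the log2 scale, with edgeR adjusted p-values of 0.0653 and 0.0706 (4 libraries: 0.0218 and 0.0240).

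**Figure D1:**
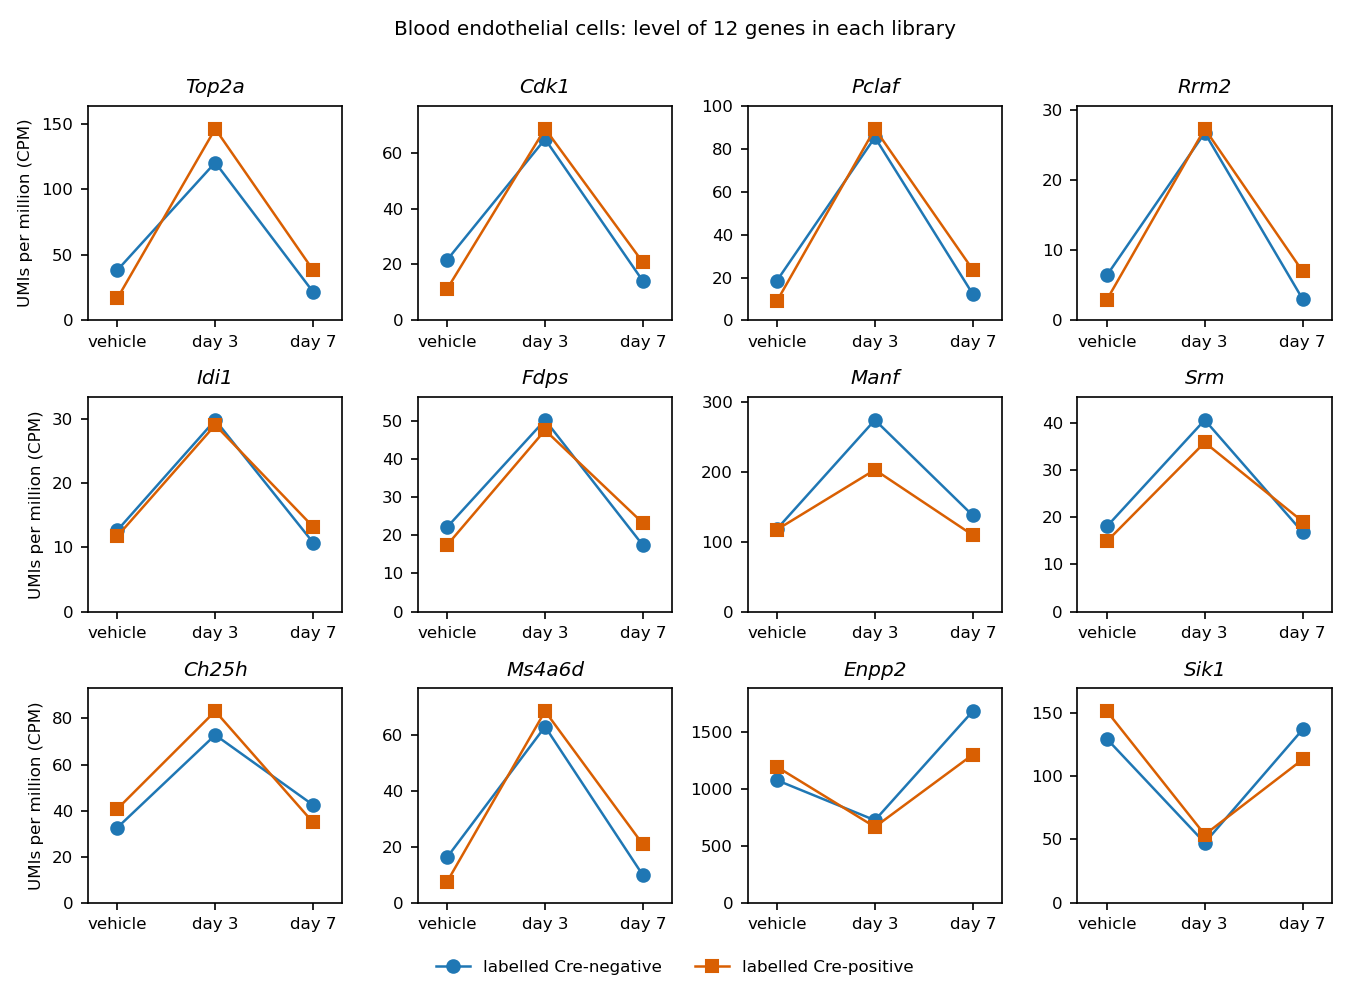
Level of 12 genes in CPM (vertical axis, each from 0) in blood endothelial cells of 6 libraries, ordered as vehicle, day 3 and day 7, with 1 line for each label and 1 point for each library. In 10 panels the day 3 pair is highest, as for Top2a at 121 and 146 CPM, and in the panels of Enpp2 and Sik1 it is lowest.

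The promoters of mitotic genes are known to carry CCAAT boxes, bound by NF-Y, and an element called CHR, bound by the DREAM and MuvB complexes. In RefSeq promoters (GRCm38.p6), 22 of the 26 G2 and M genes had an entry. In the 250 bases before the start, CCAAT on either strand was present in 19 of 22 (86.4%) against 37.5% of 27025 genes, and the CHR letters TTTGAA on either strand in 8 of 22 (36.4%) against 18.3%. The promoters of 3 such genes are shown because they hold both and belong to genes described here, with the 150 bases before the start, 5' to 3' on the gene's strand. Capitals mark the letters of either motif, read on this strand or, where they appear as the reverse complement, on the other. Their positions are chr11:99024190-99024339 (minus strand) for Top2a, chr10:69352913-69353062 (minus strand) for Cdk1 and chr2:164769779-164769928 (plus strand) for Ube2c, a ubiquitin-conjugating enzyme of mitotic exit.
Top2a: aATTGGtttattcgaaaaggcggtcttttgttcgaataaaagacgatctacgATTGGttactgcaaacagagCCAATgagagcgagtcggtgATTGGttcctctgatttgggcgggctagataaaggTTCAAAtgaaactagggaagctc
Cdk1: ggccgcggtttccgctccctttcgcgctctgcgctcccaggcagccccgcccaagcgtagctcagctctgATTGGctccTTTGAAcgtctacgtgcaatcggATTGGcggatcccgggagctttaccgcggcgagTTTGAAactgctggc
Ube2c: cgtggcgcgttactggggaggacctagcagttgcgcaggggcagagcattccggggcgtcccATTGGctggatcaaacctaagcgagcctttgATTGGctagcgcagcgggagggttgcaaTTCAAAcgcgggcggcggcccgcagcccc
Within these windows CCAAT occurred 4, 2 and 2 times and the CHR letters 1, 2 and 1 times. In the S phase list, also lower at day 7, CCAAT was present in 10 of 20 promoters (50.0%) and the CHR letters in 2 (10.0%). The CHR letters were in 1 of 13 promoters of cholesterol synthesis (7.69%) and 1 of 25 of ER folding (4.00%). CCAAT was in 20 of those 25 (80.0%). A match of letters is a description and shows no binding.

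The lower sums went with fewer cells that held mitotic transcripts. After each cell was thinned to 1000 UMIs, the share with at least 2 UMIs of the G2 and M genes was 2.26% and 0.913% with vehicle, 7.59% and 13.0% at day 3, and 1.19% and 2.35% at day 7. The exact 95% intervals of the day 3 shares, 6.76% to 8.50% and 12.1% to 13.9%, do not meet those of day 7, 0.876% to 1.58% and 1.82% to 2.97%; these cover counting error only. No cell was left out by the thinning, since each had at least 1000 UMIs. Unthinned, the shares were 7.16% and 4.38%, 16.4% and 25.0%, and 4.68% and 9.57%. B cells with at least 2 Ighd UMIs and no Pecam1 or Cdh5 UMI, which are mostly resting, served as a background. Their thinned shares in the same libraries were 1.48% and 0.806%, 0% and 3.75%, and 0.532% and 2.68%. Unthinned, they were 10.4% and 12.1%, 4.36% and 14.5%, and 5.85% and 6.71%. With vehicle, and at day 7 in the label Cre-negative, these unthinned shares were above the endothelial ones. The median depth of those B cells was 2853 to 3389 UMIs. Both thinned day 3 shares of endothelial cells were above the thinned background with intervals apart. In the vehicle and day 7 libraries the thinned intervals of endothelial and B cells overlapped. With the 248 to 607 B cells per library a difference from the thinned background was not detectable there. With at least 5 thinned UMIs the endothelial shares were 1.03% and 0.574% with vehicle, 4.44% and 6.01% at day 3, and 0.734% and 1.37% at day 7. Those of the B cells were 0.494% and 0.403%, 0% and 0.804%, and 0% and 0.336%, below the endothelial share in each library, though the intervals were again apart at day 3 alone. The larger of the 2 clusters led by cell cycle genes, which had no immunoglobulin gene among its leading genes, held 0.861% and 2.17% of the day 7 cells. The day 3 background of 0% in 298 B cells allows up to 1.23% by the exact interval.

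**Figure D2:**
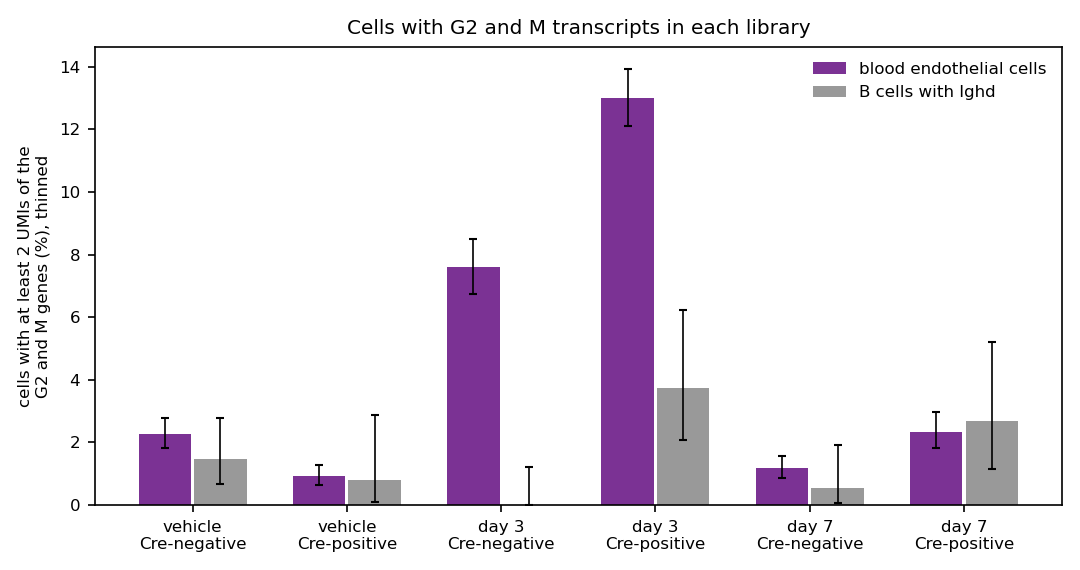
Percentage of cells with at least 2 UMIs of the 26 G2 and M genes after thinning each cell to 1000 UMIs, for blood endothelial cells (purple) and B cells with Ighd (grey) in each of 6 libraries; bars are shares and lines exact 95% binomial intervals. The purple bars reach 7.59% and 13.0% at day 3 and stay at 2.35% or below in the other 4 libraries.

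The 2 clusters led by cell cycle genes held 1092 of all 23715 gated cells (4.60%) and 7.88% of their UMIs, but 87.4% of the Top2a UMIs, 73.8% of Cdk1 and 83.3% of Pclaf. One of them, of 186 cells, also had the immunoglobulin genes Igkc, Ighg1 and Jchain among its leading genes, against 2 cycling markers, and held 0.542% and 0.339% of the gated cells with vehicle, 0.599% and 1.83% at day 3, and 0.253% and 0.736% at day 7. With that cluster alone left out, all 26 G2 and M genes were lower at day 7 in both labels at a median of -2.32 and -1.59. Without both clusters all 26 G2 and M genes were still lower at day 7 in both labels, at a median of -0.93 and -1.15, and 23 of 24 S phase genes at -0.67 and -0.66. When the mix of clusters was held the same in every library the G2 and M median was 0.25 and -0.03, with 3 genes lower and 8 higher in both labels. The genes of the G2 and M and S phase lists were left out when the clusters were made. Other genes of dividing cells, such as Pclaf, were not barred, so the clusters could still part dividing cells from the rest. In the free RNA of the same libraries Birc5 stood at 50.8 and 7.46 CPM with vehicle, 132 and 214 CPM at day 3, and 14.7 and 36.1 CPM at day 7, highest at day 3 as in cells. The 10 cycling markers summed to 674 and 1149 CPM in free RNA at day 3, against 595 and 653 CPM in the gated cells. At day 7 the sums were 87.5 and 245 CPM against 101 and 187 CPM. The part of free RNA in the values left without the cycling clusters was not tested. With free RNA subtracted the fitted G2 and M median was -2.09, against -2.11 without. The share subtracted, 1.46% to 3.70%, came from T and B cell genes in cells gated to lack Ptprc, Cd79a and Cd3e. It may therefore be too small, and the subtraction cannot show how much free RNA adds.

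Genes of cholesterol synthesis were lower at day 7 in both labels in 19 of the 20 tested of 21 listed (31.3% of all genes were). Of them 13 had an unadjusted p below 0.05 (11.9% of all genes) and 6 were called in the 4 libraries (3.67%). The median was -0.57 and -0.40, the reverse of 0.48 and 0.49 from vehicle to day 3, where 19 of 20 were higher in both labels (27.8% of all genes were). Idi1, which isomerises the isoprene unit, stood at 12.7 and 11.8 CPM with vehicle, 29.9 and 29.1 CPM at day 3, and 10.8 and 13.2 CPM at day 7. Fdps, which joins those units, stood at 22.2 and 17.5 CPM with vehicle, 50.2 and 47.5 CPM at day 3, and 17.4 and 23.2 CPM at day 7, and Cyp51, a demethylase of the sterol ring, at 9.13 and 6.54 CPM with vehicle, 19.7 and 16.8 CPM at day 3, and 7.34 and 8.49 CPM at day 7. In each the day 3 pair did not overlap the others. The log2 differences from day 3 were -1.33 (SE 0.13), -1.30 (SE 0.17) and -1.22 (SE 0.18), with edgeR adjusted p-values of 0.0563, 0.0572 and 0.0653 (4 libraries: 0.0218, 0.0219 and 0.0241).

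These genes were not carried by the cycling clusters to the same degree. Those clusters held 17.1% of the Idi1 UMIs and 14.6% of Fdps, and without them the log2 ratios of Idi1 were -1.30 and -0.95 and the list median -0.54 and -0.37. With the cluster mix held, all 20 genes were lower in both labels at a median of -0.49 and -0.34. The fitted list median was -0.57 over all gated cells and -0.054 in cluster 0 alone, the value nearest 0 among its alternatives. Cluster 0 is led by Timp4 and Fabp4, with 1 of the capillary markers but 3 haemoglobin genes among its 10 leading genes, and is therefore left without a name here. It held 259 and 423 of the day 7 cells, at a median of 2431 UMIs per cell over all libraries. There Idi1 differed by 0.23 on the log2 scale at an edgeR adjusted p of 0.898, so its direction in this cluster is not settled. Scarb1, which takes up cholesterol from HDL, lay the other way at 467 and 428 CPM with vehicle, 262 and 223 CPM at day 3, and 492 and 421 CPM at day 7, a log2 difference of 0.89 (SE 0.12) at an edgeR adjusted p of 0.0592 (4 libraries: 0.0223). Every day 3 library was below every other library for Scarb1. All 13 promoters of the sterol list found in RefSeq held CCAAT in their 250 bases, against 37.5% of all genes. The Idi1 window of 150 bases, chr13:8885456-8885605 (plus strand), is shown since the gene had the lowest adjusted p of its list, with CCAAT, here on the other strand, in capitals.
Idi1: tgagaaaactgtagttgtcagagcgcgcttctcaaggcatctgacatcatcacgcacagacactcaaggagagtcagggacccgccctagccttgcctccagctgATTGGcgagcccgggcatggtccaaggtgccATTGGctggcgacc

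Genes of the ribosome biogenesis list, which also holds other targets of Myc, were lower at day 7 in both labels in 16 of 20 (31.3% of all genes were). An unadjusted p below 0.05 was reached by 12 of them (11.9% of all genes), and the list median was -0.38 and -0.40. Srm, one of those other Myc targets, which makes the polyamine spermidine, stood at 18.0 and 14.9 CPM with vehicle, 40.5 and 35.8 CPM at day 3, and 16.8 and 19.1 CPM at day 7. Its day 3 values did not overlap the rest, and its log2 difference was -1.11 (SE 0.12) at an edgeR adjusted p of 0.0563 (4 libraries: 0.0219). Nhp2 and Nop56, core proteins of the small nucleolar particles that modify ribosomal RNA, differed from day 3 by -0.80 (SE 0.15) and -0.61 (SE 0.09). The share of UMIs from ribosomal protein genes was also highest at day 3, at 13.0% and 12.1% with vehicle, 14.7% and 17.0% at day 3, and 13.7% and 13.9% at day 7, and its part in these values was not tested. Without the cycling clusters the list median was -0.31 and -0.32. The fitted median was -0.39 over all gated cells, -0.14 in HEV-like clusters and -0.074 in cluster 0.

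Of 27 genes that fold proteins in the endoplasmic reticulum or signal its load, 17 were lower at day 7 in both labels and 2 higher. Of all genes 31.3% were lower and 36% higher. An unadjusted p below 0.05 was reached by 13 of the lower (11.9% of all genes). Manf, a secreted stress factor, stood at 118 and 117 CPM with vehicle, 274 and 203 CPM at day 3, and 137 and 109 CPM at day 7. Creld2, a disulfide isomerase, stood at 17.3 and 16.6 CPM with vehicle, 34.7 and 27.2 CPM at day 3, and 17.4 and 14.4 CPM at day 7, and Sdf2l1, a partner of the chaperone BiP, at 25.9 and 16.9 CPM with vehicle, 50.4 and 38.7 CPM at day 3, and 30.4 and 15.8 CPM at day 7. The log2 differences were -0.96 (SE 0.14), -0.98 (SE 0.12) and -1.02 (SE 0.17), with edgeR adjusted p-values of 0.0644, 0.0563 and 0.0724 (4 libraries: 0.0218, 0.0219 and 0.0439). In all 3 genes the day 3 libraries were the highest, without overlap. The fitted median of the list was -0.27 over all gated cells and -0.041 in cluster 0. Hspa5, picked with its values in view as the gene of BiP itself, stood at 331 and 292 CPM with vehicle, 616 and 436 CPM at day 3, and 404 and 252 CPM at day 7, with no overlap between day 3 and the rest. The transcription factor genes Atf4 and Ddit3, members picked in the same way, had log2 ratios of 0.31 and -0.06 for Atf4 and 0.18 and 0.05 for Ddit3.

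The element that drives several of these genes, ERSE, is known to bind NF-Y and ATF6. Its letters, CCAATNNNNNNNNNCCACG on either strand, were found in 8 of 25 list promoters in RefSeq (32.0%) against 0.130% of all 27025. Because the element contains CCAAT, the match overlaps with that motif. The windows of Hspa5, at chr2:34771940-34772089 (plus strand), and Creld2, at chr15:88819496-88819645 (plus strand), are shown as 2 such genes that were highest at day 3, the 150 bases before the start, with the fixed letters of the element in capitals, on the other strand in Creld2.
Hspa5: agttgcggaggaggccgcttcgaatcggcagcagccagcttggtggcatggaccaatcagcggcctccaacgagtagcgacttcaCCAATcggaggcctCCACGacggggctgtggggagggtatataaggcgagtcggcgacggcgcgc
Creld2: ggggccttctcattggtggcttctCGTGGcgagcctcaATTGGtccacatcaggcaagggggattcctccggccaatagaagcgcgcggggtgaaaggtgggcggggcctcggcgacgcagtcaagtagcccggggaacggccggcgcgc

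Cytosolic and mitochondrial chaperones were lower at day 7 in both labels in 12 of 13 (31.3% of all genes were). Of them 5 had an unadjusted p below 0.05 (11.9% of all genes) and 9 were called in the 4 libraries (3.67%). This list differed from the ones above, since day 3 was above vehicle only in part: its medians were 0.60 and -0.22 from vehicle to day 3, -0.63 and -0.74 from day 3 to day 7, and 0.02 and -0.66 from vehicle to day 7. Hspd1, the mitochondrial chaperonin, stood at 97.1 and 133 CPM with vehicle, 202 and 180.3 CPM at day 3, and 96.9 and 84.7 CPM at day 7, and its cofactor Hspe1 at 244 and 256 CPM with vehicle, 417 and 422 CPM at day 3, and 234 and 205 CPM at day 7. Both had the day 3 pair on top, with log2 differences of -1.09 (SE 0.19) and -0.96 (SE 0.13) at edgeR adjusted p-values of 0.0743 and 0.0636. The stress-induced Hspa1b stood at 398 and 573 CPM with vehicle, 539 and 385 CPM at day 3, and 302 and 217 CPM at day 7, so its highest library was a vehicle one and its day 3 and vehicle values overlapped. Glycolysis genes were lower in both labels in 10 of 16 (31.3% of all genes were), 7 with an unadjusted p below 0.05 (11.9%). Their median was -0.35 and -0.25. The fitted median of these genes was -0.45 over all gated cells, -0.16 with the cluster mix held and -0.021 in cluster 0. Pgk1, which makes ATP in that pathway, stood at 61.3 and 51.3 CPM with vehicle, 89.7 and 94.6 CPM at day 3, and 53.8 and 60.7 CPM at day 7, and Ldha, which forms lactate, at 215 and 175 CPM with vehicle, 303 and 319.9 CPM at day 3, and 181 and 219.9 CPM at day 7. Both had the 2 day 3 libraries on top, at edgeR adjusted p-values of 0.0727 and 0.0975 (4 libraries: 0.0228 and 0.0333).

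**Figure D3:**
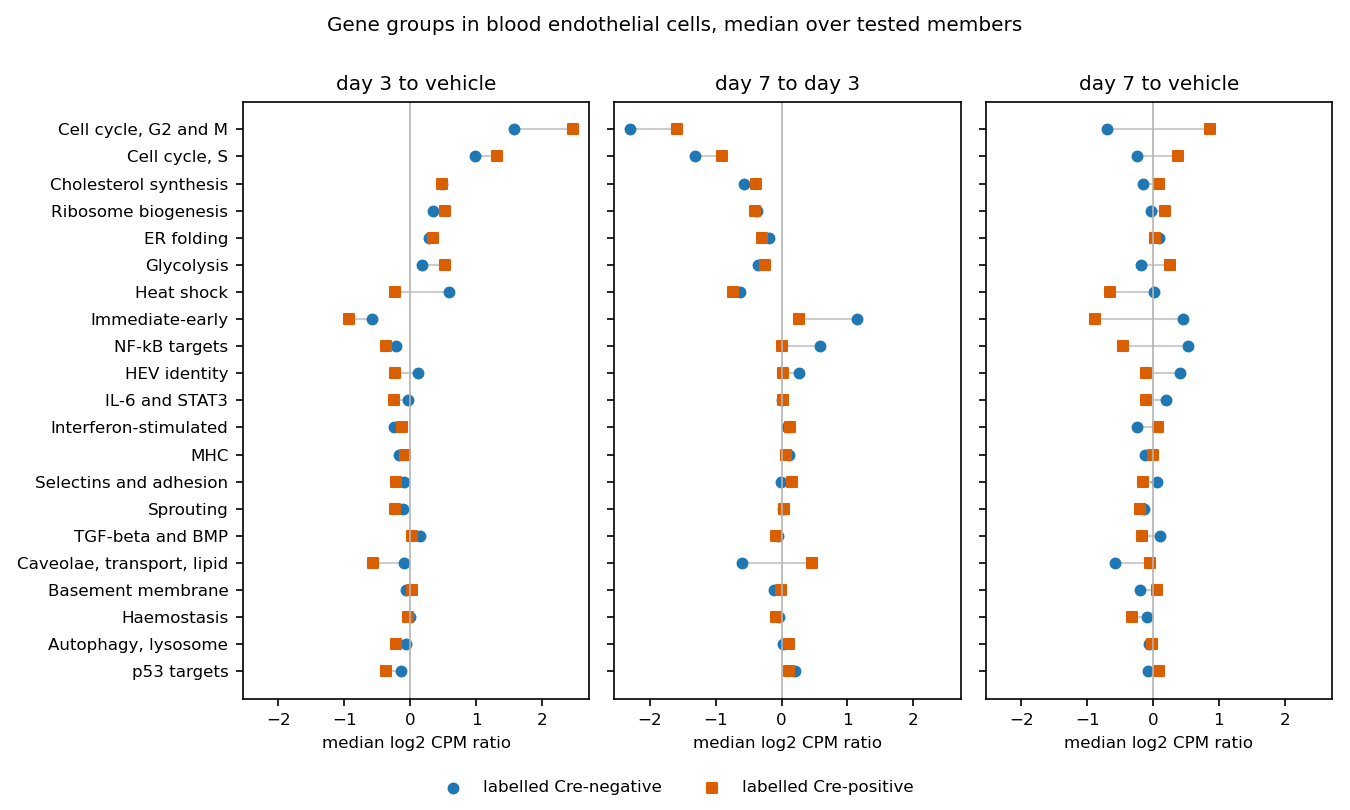
Median log2 CPM ratio (horizontal axis) of the tested members of 21 gene groups in 3 contrasts that share libraries, with a circle for the libraries labelled Cre-negative and a square for those labelled Cre-positive. For the G2 and M group the middle panel shows -2.30 and -1.58, and the right panel -0.71 and 0.86.

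Among genes of IL-6 and STAT3 signalling, 6 of 19 were lower in both labels at day 7 (31.3% of all genes were) and 8 higher (36% of all genes were), so the counts lay near those of all genes. An unadjusted p below 0.05 was reached by 3 of the lower (11.9% of all genes) and 2 of the higher (9.10%), which is near those shares too. The 2 higher, named with their values in view, were the receptor genes Il6st and Osmr, with log2 differences of 0.64 (SE 0.25) and 0.44 (SE 0.13), and the 3 lower were secreted products. The grouping as receptors and products was made after the values were seen. Saa3, an acute phase apolipoprotein, stood at 1.2 and 1.11 CPM with vehicle, 7.29 and 5.58 CPM at day 3, and 0.924 and 1.29 CPM at day 7. Lcn2, an iron-scavenging protein, stood at 2.89 and 3.8 CPM with vehicle, 7.44 and 12.6 CPM at day 3, and 2.72 and 4.61 CPM at day 7, and Timp1, a protease inhibitor, at 13.9 and 8.23 CPM with vehicle, 33.2 and 28.1 CPM at day 3, and 18.1 and 12.7 CPM at day 7. The day 3 pair lay above the rest for all 3, and the log2 differences were -2.56 (SE 0.29), -1.48 (SE 0.19) and -1.04 (SE 0.15) with edgeR adjusted p-values of 0.0563, 0.0563 and 0.0653. Il6 itself, from the NF-kB list, stood at 8.03 and 11.4 CPM with vehicle, 23.2 and 19.5 CPM at day 3, and 12.1 and 8.12 CPM at day 7. Fgf23, a hormone of phosphate balance chosen after its values were seen, stood at 0.749 and 0.580 CPM with vehicle, 17.5 and 3.51 CPM at day 3, and 3.74 and 2.52 CPM at day 7, the 2 labels far apart at day 3. At day 7 it was the sole gene at least 2-fold above vehicle in both labels (0.00658% of 15195), at an edgeR adjusted p of 1.00.

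Cxcl10, which attracts T cells, stood at 43.3 and 65.7 CPM with vehicle, 85.1 and 124 CPM at day 3, and 36.8 and 69.0 CPM at day 7. Ch25h, which makes the oxysterol precursor of a lymphocyte guidance cue, stood at 32.6 and 40.8 CPM with vehicle, 72.8 and 83.2 CPM at day 3, and 42.4 and 34.9 CPM at day 7. Day 3 was highest in both genes and their log2 differences were -1.04 (SE 0.11) and -1.02 (SE 0.18), at edgeR adjusted p-values of 0.0563 and 0.0740 (4 libraries: 0.0219 and 0.0343). Of 37 interferon-stimulated genes 18 were higher and 6 lower at day 7 in both labels, against 36% and 31.3% of all genes. An unadjusted p below 0.05 was reached by 6 of the higher (9.10% of all genes). Ifit3, an antiviral protein, stood at 96.9 and 89.5 CPM with vehicle, 47.3 and 70.4 CPM at day 3, and 83.3 and 104 CPM at day 7, lowest at day 3. In HEV-like clusters alone the difference of Ifit3 was -0.02 and in cluster 0 alone that of Cxcl10 was 0.56 on the log2 scale, each the reverse of the value in all cells. Their edgeR adjusted p-values there were 0.983 and 0.739, so neither direction is settled.

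The days overlapped for the selectin genes. Selp, the selectin of platelets and venules, stood at 85.0 and 133 CPM with vehicle, 315 and 184 CPM at day 3, and 205 and 56.9 CPM at day 7, and Sele, its inducible relative, at 67.4 and 102 CPM with vehicle, 162 and 103 CPM at day 3, and 109.5 and 52.8 CPM at day 7. Both were lower at day 7 than at day 3 within each label, but day 3 labelled Cre-positive was below day 7 labelled Cre-negative, and the unadjusted edgeR p-values were 0.111 and 0.106. Of the 17 adhesion genes tested, 6 were higher and 4 lower in both labels, against 36% and 31.3% of all genes. Jam3, a junctional molecule, stood at 249 and 332 CPM with vehicle, 146 and 144 CPM at day 3, and 301 and 219 CPM at day 7, with the day 3 pair lowest, at an edgeR adjusted p of 0.136 (4 libraries: 0.0512). Pecam1, part of the gate, stood at 1435 and 1464 CPM with vehicle, 1110.5 and 1089 CPM at day 3, and 1532 and 1511 CPM at day 7.

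In the high endothelial venule list 8 of 17 genes were higher at day 7 in both labels (36% of all genes were) and 5 lower (31.3%). Of the 17, 5 were higher and 2 lower with an unadjusted p below 0.05, against 9.10% and 11.9% of all genes, so the lower counts lay near those of all genes. Enpp2, which encodes autotaxin, stood at 1076 and 1193 CPM with vehicle, 725 and 666 CPM at day 3, and 1683 and 1301 CPM at day 7. Day 7 was above vehicle and vehicle above day 3 with no overlap, and the log2 difference from day 3 was 1.08 (SE 0.19) at an edgeR adjusted p of 0.0742 (4 libraries: 0.0319). Fut7, which adds the fucose that L-selectin binds, stood at 62.5 and 70.7 CPM with vehicle, 74.7 and 41.8 CPM at day 3, and 140.2 and 75.6 CPM at day 7, and day 3 overlapped vehicle. Glycam1, which carries that sugar, stood at 3675 and 3454 CPM with vehicle, 6918 and 2452 CPM at day 3, and 24164 and 2399 CPM at day 7. The homing chemokine gene Ccl21a stood at 918 and 969.9 CPM with vehicle, 1171 and 638 CPM at day 3, and 2698 and 726 CPM at day 7. For both, 1 library, day 7 labelled Cre-negative, was above all others, and day 7 labelled Cre-positive was not above vehicle. The 12 marker genes of these venules summed to 6068 and 6048 CPM with vehicle, 9356 and 4160 CPM at day 3, and 29205 and 4834 CPM at day 7, and in the free RNA of the same libraries to 6277 and 4891, 15297 and 2742, and 19998 and 2735 CPM. These sums include Glycam1, Ccl21a, Enpp2 and Fut7 and are no separate measure. HEV-like clusters, named by the same markers, held 3.25% and 4.72% of gated cells with vehicle. They held 6.31% and 3.93% at day 3, and 10.7% and 3.50% at day 7. The part of these shares in the gene values was not tested.

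Most of the 12 genes with the largest higher values at day 7, ranked by the smaller ratio of the labels, belonged to no list. Sik1, a kinase induced by cAMP, stood at 129 and 151 CPM with vehicle, 47.3 and 53.8 CPM at day 3, and 137 and 113 CPM at day 7. Ltbp2, a matrix protein that binds fibrillin, stood at 36.1 and 47.6 CPM with vehicle, 28.0 and 15.1 CPM at day 3, and 77.9 and 41.8 CPM at day 7. Both genes had the day 3 pair below all other libraries, with vehicle and day 7 values overlapping. The log2 differences were 1.29 (SE 0.17) and 1.46 (SE 0.34), with edgeR adjusted p-values of 0.0569 and 0.103 (4 libraries: 0.0229 and 0.0218). Among the others of the 12 were Hap1 at 1.19 (SE 0.13), Mill2 at 1.07 (SE 0.11), Chp2 at 1.11 (SE 0.14), Lhfpl2 at 1.04 (SE 0.12) and the axon guidance gene Sema5a at 1.09 (SE 0.31).

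Lars2 and Cmss1, also among the 12, were lower at day 3, as was Malat1, a nuclear RNA whose share often varies with RNA quality. Lars2, the mitochondrial leucine tRNA ligase, stood at 487 and 746 CPM with vehicle, 273 and 250.4 CPM at day 3, and 562 and 561 CPM at day 7. Malat1 stood at 28743 and 27390 CPM with vehicle, 21961 and 22849 CPM at day 3, and 29963 and 25915 CPM at day 7. The mitochondrial share ran from 1.74% to 2.44% over the 6 libraries with no separation of the days. The part of RNA quality in these values was not tested.

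Immediate-early genes, which respond to signals and to handling within minutes, were lower at day 3 than in vehicle in 22 of 24 (43.3% of all genes were), and higher at day 7 than at day 3 in 15 of 24 (36%), 9 with an unadjusted p below 0.05 (9.10%). The size of the second step differed by label, with a median of 1.15 and 0.26, a difference that was not tested. Fosb, a subunit of AP-1, stood at 177 and 335 CPM with vehicle, 39.9 and 96.9 CPM at day 3, and 264 and 157 CPM at day 7, and Egr1, a zinc finger factor, at 519.9 and 784 CPM with vehicle, 232 and 274 CPM at day 3, and 815 and 408 CPM at day 7. For both, day 7 labelled Cre-negative was above its vehicle library or close to it, while day 7 labelled Cre-positive was nearer to day 3. Klf4, a factor of quiescent endothelium, stood at 295 and 375 CPM with vehicle, 199 and 229 CPM at day 3, and 344 and 355 CPM at day 7, at an edgeR adjusted p of 0.0807 (4 libraries: 0.0388). NF-kB targets had a similar split, with medians of 0.58 and 0.01, and Birc3, an inhibitor of cell death in that list, stood at 148 and 187 CPM with vehicle, 84.6 and 76.2 CPM at day 3, and 225 and 119.7 CPM at day 7.

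**Figure D4:**
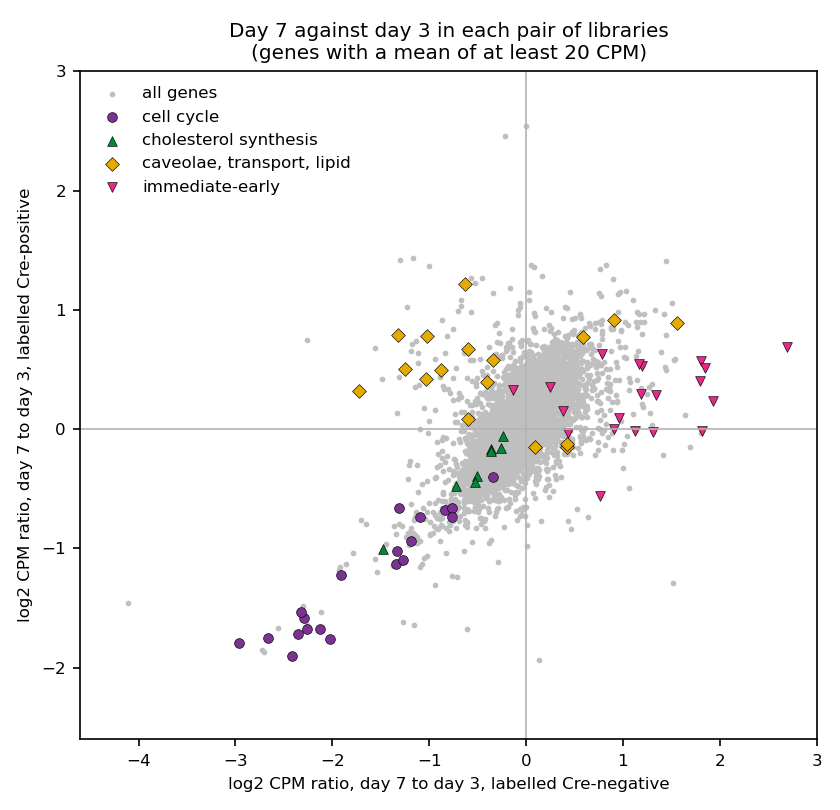
Log2 CPM ratio of day 7 to day 3 in the libraries labelled Cre-negative (horizontal axis) and Cre-positive (vertical axis), 1 point per gene with a mean of at least 20 CPM. Cell cycle genes lie in the lower left corner, immediate-early genes lie to the right close to the horizontal line, and many genes of caveolae and lipid transport lie in the upper left, with list medians of -0.60 and 0.46.

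Counts in 7 other groups are given for both labels together and are to be read against the 36% of all genes that were higher and the 31.3% that were lower. Of 28 sprouting genes 10 were higher and 7 lower; Vegfc, a growth factor of lymphatic and blood vessels, stood at 42.5 and 42.3 CPM with vehicle, 47.3 and 49.8 CPM at day 3, and 24.1 and 37.3 CPM at day 7, and the tip cell gene Esm1 at 147 and 173 CPM with vehicle, 147 and 207 CPM at day 3, and 114 and 108 CPM at day 7, both lower at day 7 with unadjusted edgeR p-values of 0.00399 and 0.00823. Of the 28 sprouting genes, 3 were lower and 1 higher with an unadjusted p below 0.05, against 11.9% and 9.10% of all genes. Neither share was thus above that of all genes, and the lowest edgeR adjusted p in the list was 0.0913. Of 18 TGF-beta and BMP genes 5 were higher and 9 lower. The inhibitor Smad6 differed by -0.63 (SE 0.09) and the effector Smad1 by 0.45 (SE 0.10). Of 18 haemostasis genes 8 were higher and 8 lower, and Plaur, the urokinase receptor, stood at 27.9 and 36.8 CPM with vehicle, 54.6 and 51.8 CPM at day 3, and 34.6 and 25.0 CPM at day 7. Of 27 basement membrane genes 9 were higher and 13 lower. Of 23 autophagy and lysosome genes, 11 were higher and 6 lower, and Ulk1, the kinase that starts autophagy, stood at 19.5 and 18.5 CPM with vehicle, 13.5 and 11.8 CPM at day 3, and 18.9 and 20.8 CPM at day 7, lowest at day 3. Of 20 MHC genes 9 were higher and 3 lower, and of 15 p53 targets 7 were higher and 4 lower. The medians of these 7 lists lay between -0.11 and 0.20 in either label.

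The labels went apart in the list of caveolae, transport and lipid uptake, whose median was -0.60 and 0.46 while 3 of its 20 genes were higher and 3 lower in both labels. Fabp4, a fatty acid carrier of capillaries chosen after its values were seen, stood at 12115 and 8807 CPM with vehicle, 11154 and 5732 CPM at day 3, and 4473 and 9893 CPM at day 7. Day 7 held both the lowest library, labelled Cre-negative, and one of the higher ones, so the days overlapped. The 10 capillary marker genes summed to 19395 and 15686 CPM with vehicle, 17224 and 11301 CPM at day 3, and 9407 and 16289.8 CPM at day 7, the same order of the labels. With the cluster mix held the list median was 0.07 and 0.15.

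To ask which day 3 differences had gone by day 7, genes with a mean of at least 20 CPM were taken that differed from vehicle by at least 2-fold in the same direction in both labels: 34 were higher at day 3 and 17 lower, of 6790. Here, as in every log2 CPM ratio given per label, 1 CPM was added first, which makes the ratios of genes at a few CPM smaller. A gene counted as returned when less than 0.5 of its log2 difference was left at day 7 in both labels, as persisted when at least that much was left in both, and otherwise as mixed. Of the 34 higher genes 31 returned, 0 persisted and 3 were mixed. The minimum of 20 CPM was a mean over libraries that include day 3, so a gene low elsewhere could pass through its day 3 level, and 18 of the 34 were under 20 CPM in the mean of the vehicle and day 7 libraries. With the minimum taken over those 4 libraries, a choice made after seeing the data, 16 genes were higher at day 3, of which 14 returned, 0 persisted and 2 were mixed. By the first rule a gene can return and still lie above vehicle. In the label Cre-negative 0 of the 31 were at least 2-fold above vehicle at day 7, and the median log2 ratio to vehicle was -0.56. In the label Cre-positive 10 of the 31 were, 6 of them in the cell cycle lists, and the median was 0.55. Among these 10 were Birc5 at a log2 ratio of 1.56, Ube2c at 1.55 and Ms4a6d at 1.35. Of the 17 lower genes 6 returned, 1 persisted and 10 were mixed. The differences of day 3 and of day 7 from vehicle share the vehicle libraries. Genes were also chosen, minimum included, in the vehicle and day 3 libraries of one label alone and read in the other label's day 3 and day 7 libraries. Of 67 genes chosen as higher in Cre-negative, 65 were lower at day 7 in Cre-positive (97.01%, against 40.2% of all 6877 past the minimum), and 95 of 96 the other way round (98.96%, against 56.5% of 6734). For genes chosen as lower the counts of higher ones were 27 of 33 (81.8%, against 59.8%) and 70 of 89 (78.7%, against 43.5%).

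**Figure D5:**
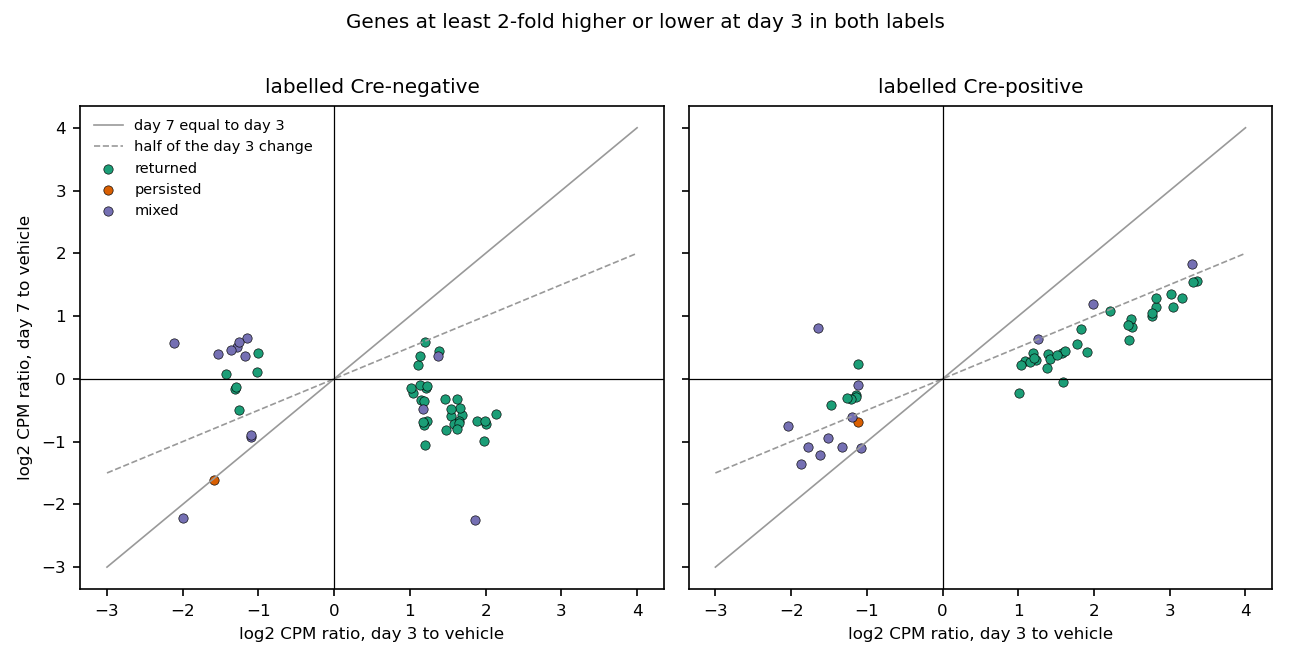
Log2 CPM ratio of day 7 to vehicle (vertical axis) against that of day 3 to vehicle (horizontal axis) for the 51 genes at least 2-fold different at day 3 in both labels, 1 panel per label. The solid line marks a day 7 level equal to day 3 and the dashed line 0.5 of the day 3 difference; the 31 returned higher genes lie under the dashed line in both panels.

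Of the 31 genes that returned by the first rule 12 were in the cell cycle lists, and several others were not. Ms4a6d, a membrane protein better known from macrophages, stood at 16.3 and 7.59 CPM with vehicle, 63.0 and 68.5 CPM at day 3, and 9.84 and 20.8 CPM at day 7, and 14.0% of its UMIs lay in cycling clusters. Mctp1, a calcium-binding membrane protein, stood at 161 and 94.6 CPM with vehicle, 446 and 338 CPM at day 3, and 128 and 164 CPM at day 7, and Slco2a1, the prostaglandin transporter, at 92.6 and 86.5 CPM with vehicle, 187 and 194 CPM at day 3, and 83.8 and 104 CPM at day 7. In these genes the day 3 pair did not overlap the other libraries, and without the cycling clusters the log2 ratios of day 7 to day 3 were -2.50 and -1.67 for Ms4a6d, -1.85 and -1.05 for Mctp1 and -1.12 and -0.88 for Slco2a1. Without those clusters 21 genes passed the 2-fold rule in place of 51, and 11 returned. The 12 myeloid marker genes summed to 69.3 and 43.5 CPM with vehicle, 26.9 and 54.5 CPM at day 3, and 35.5 and 37.3 CPM at day 7. Within the label Cre-positive the sum was thus highest at day 3. Its part in the Ms4a6d values was not tested.

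Of the mixed genes, Nts, which encodes neurotensin, stood at 31.5 and 7.96 CPM with vehicle, 117 and 86.8 CPM at day 3, and 5.86 and 31.0 CPM at day 7. Day 7 lay below vehicle in one label and above it in the other. Serpinb1a, a protease inhibitor, stood at 350.0 and 318 CPM with vehicle, 904 and 761 CPM at day 3, and 449.6 and 494 CPM at day 7, above vehicle at day 7 in both labels. Among the lower genes that returned were Cx3cl1, a membrane-bound chemokine (29.6 and 43.4 CPM with vehicle, 11.4 and 18.1 CPM at day 3, and 27.1 and 34.6 CPM at day 7), and Camk1d, a calcium-dependent kinase (1016 and 1059 CPM with vehicle, 409 and 478 CPM at day 3, and 905 and 866 CPM at day 7). Among the mixed were Fosb, Egr1, Egr3, Fos, Nr4a1 and Zfp36, immediate-early genes that were back at vehicle or above it in the label Cre-negative alone. Rgs5, also mixed, is a pericyte gene, and all 9 pericyte markers tested were lower at day 3 than in vehicle in both labels (43.3% of all genes were). The sum of the 10 pericyte markers was 76.5 and 145 CPM with vehicle, 41.2 and 41.6 CPM at day 3, and 59.6 and 69.1 CPM at day 7.

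The single gene that persisted at 2-fold was Hbb-bs, a haemoglobin gene of red cells, at 210.3 and 359 CPM with vehicle, 69.6 and 165 CPM at day 3, and 68.4 and 223 CPM at day 7. With the minimum lowered to 1.5-fold, a choice made after seeing the data, 6 of 231 genes persisted and 167 returned. The other 5 were Xist, Ddx3y, Eif2s3y and Uty, which are sex-linked, and Cmah. Cmah, which converts one sialic acid of cell surface sugars into another, stood at 141 and 82.4 CPM with vehicle, 242 and 147 CPM at day 3, and 198 and 136 CPM at day 7, with day 7 above vehicle within each label but the labels overlapping. Between day 7 and vehicle edgeR called 0 of 15195 genes, with 448 (2.95%) at an unadjusted p below 0.05, 246 higher (1.62%) and 202 lower (1.33%) in both labels, and DESeq2 called 2, Cmah higher and Hbb-bs lower. Higher in both labels were 2253 genes (14.8%) and lower 4474 (29.4%). At least 2-fold lower than vehicle in both labels were 10 genes (0.0658%), named here with their values in view: Lsp1, Cytip, Laptm5, Cd209d, Ly6d, Basp1, Mpeg1, Timd4, Kdm5d and Cd209b, of which most are leukocyte genes and Kdm5d is Y-linked. Myeloid marker genes summed to 69.3 and 43.5 CPM with vehicle and 35.5 and 37.3 CPM at day 7, and their part in these values was not tested.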

How the data were processed

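Single-cell RNA was measured in 12 libraries, of which 6 of the CD31 sort were used. The deposited files hold raw UMI counts per gene and barcode, made by the authors with Cell Ranger, version 7.0.1 on build mm10 per the submitters' processing notes and version 4 per the file headers; the difference is not settled here. An mRFP feature listed in 4 of these libraries was left out. Counts of gated cells were summed per library and tested with edgeR 4.0.16 (R 4.3.3; TMM, filterByExpr by day, quasi-likelihood, label plus day over 6 libraries), with Benjamini-Hochberg adjustment over all 15195 genes. DESeq2 1.42.0 and the other gates, filters, cell mixes and left-out libraries were alternatives. Clusters came from scanpy 1.11.5 with leidenalg 0.10.2. No doublets were removed.

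CPM divides a gene's UMIs by all UMIs of the gated cells, so levels of different genes are not compared. Total counts of 16262498 to 28501154 per library set the counting precision. Cell intervals are exact Clopper-Pearson at 95%. Genes were named as the 12 higher and 12 lower (8 and 8 for day 3 against vehicle) of at least 20 CPM with the largest smaller ratio of the 2 labels, and 3 in each list; others are said to be chosen after their values were seen or belong to the day 3 rule. The minimum of 20 CPM was a mean over the libraries compared, day 3 included. A gene low elsewhere could therefore be named through its day 3 level. Members and lists were chosen with earlier results of these data known. A gene that the naming rule selects is not reported here.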

Additional observations from a re-analysis of the deposited data

Results flagged for a closer look

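For the caveolae, transport and lipid list, the median log2 CPM ratio of day 7 to day 3 was -0.60 in the libraries labelled Cre-negative and 0.46 in those labelled Cre-positive. It was singled out because the 2 labels moved in opposite directions under the same contrast, with 1 library per label and day. The difference between the labels was not tested.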

How the results depend on the processing

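Each value rests on 1 library per day and label, so the spread has 2 residual degrees of freedom at most, and sex and day cannot be told apart from library. The count of 0 genes called between day 7 and day 3 became 730 with the 4 oxazolone libraries, 656 with DESeq2, 709 with no low-count filter, 136 with at least 4 Pecam1 plus Cdh5 UMIs, 120 in HEV-like clusters and 79 in cluster 0, which holds 1 capillary marker but 3 haemoglobin genes among its leading genes, 58 in cells with a Y-linked UMI and 102 without clusters led by another cell type. With a library left out it ran from 0 (either day 3 library) to 788 (vehicle labelled Cre-positive), with 757 without vehicle labelled Cre-negative, 3 without day 7 labelled Cre-negative and 414 without day 7 labelled Cre-positive; a lone library is then assumed to vary like the other groups. It stayed at 0 with RLE size factors, at least 2000 UMIs, thinned cells, the wider exclusion of other cells, subtracted free RNA, doublets removed, the cluster mix held, no cycling clusters, and without the cycling cluster that held immunoglobulin genes.

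Between day 3 and vehicle the count of 0 became 931 with DESeq2, 260 with RLE, 1041 with no filter, 433 at 2000 UMIs, 639 at 4 gate UMIs, 339 with free RNA subtracted, 308 in HEV-like clusters and 30 in cluster 0, and 484 without clusters led by another cell type; leaving out a library gave 0 to 975. Between day 7 and vehicle it became 2 with DESeq2 and 5 in cluster 0, and 0 to 3 with a library left out. The 37 genes that returned became 5 in cluster 0, 21 thinned, 24 in cells with a Y-linked UMI, 11 with the mix held, 11 without cycling clusters, 20 with the CPM minimum taken without day 3 and 167 at 1.5-fold. The 1 that persisted became 3 in HEV-like clusters, 6 at 1.5-fold, and 0 when thinned, in cells with a Y-linked UMI, with the mix held, with doublets removed and without cycling clusters. Leaving out a library gave no value for these 2 counts, which need both labels. The gated share differed between day 7 and day 3 by -3.02 percentage points, from -5.29 and -0.74 in the labels with an SD of 3.22 that exceeds it, and became -5.16 at 2000 UMIs and 1.91 at 4 gate UMIs.

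Of 482 medians of the 21 gene groups 114 moved by more than the spread between labels, and 7 groups kept their sign in every alternative. Their ranges for day 7 against day 3 were -1.49 to -0.092 for S phase, -0.66 to -0.054 for cholesterol synthesis, -0.51 to -0.074 for ribosome biogenesis, -0.56 to -0.021 for glycolysis, -0.36 to -0.041 for ER folding, -1.47 to -0.41 for heat shock and -0.26 to -0.040 for haemostasis. In the first 5 the value nearest 0 was that of cluster 0. The G2 and M median changed sign with the mix held, at 0.059, and ran from -3.02 to -1.53 in the other alternatives that gave one. Among named genes 1670 values kept direction and side of the threshold, 502 passed it only in the alternative and 27 reversed. The 27 reversed values had edgeR adjusted p-values of 0.274 or more, so their directions are not settled, and the cause was not tested. In cluster 0 these were, for day 7 against day 3 on the log2 scale, Apoe -0.29, Btg2 -0.0469, Cxcl10 0.56, Egr1 -0.52, Idi1 0.23, Jam3 -0.0404, Klf4 -0.0886, Ldha 0.0389, Nhp2 0.0380 and Pgk1 0.38, and for day 3 against vehicle Egr1 0.29, Egr3 0.23 and Nr4a1 0.34. In HEV-like clusters they were Ifit3 -0.0206, Ifit3b -0.0581, Map1lc3a -0.0204, Plaur 0.0260, Tnc -0.0370 and Trp53inp1 -0.15, and Angptl4 0.0181 for day 3 against vehicle. With the mix held they were Cenpf 0.21, Nusap1 0.43, Prc1 0.17, Slc16a3 0.10, Top2a 0.0597 and Ube2c 0.47, and with the wider exclusion Bmp4 -0.0151. The alternatives without cycling clusters or the one with immunoglobulin genes, without clusters led by another cell type, with the CPM minimum taken without day 3 and at 1.5-fold were chosen after seeing the data. No paired analysis was possible because the groups share fewer than 2 replicate numbers, beyond the matching of libraries by label, which is a term of every fit.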
